A study of Mus musculus with 3 samples.

Results

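The 10 genes described here encode the enzymes that make fatty acids and then desaturate or lengthen them: Acly, Acaca, Fasn, Scd1, Scd2, Elovl1, Elovl5, Elovl6, Fads1 and Fads2. They were chosen by symbol in a table of 12852 genes, each matched 1 gene ID, and all 10 had values. The choice was made with earlier results of these data known, among them that Scd1 and Scd2 had moved in opposite directions. The values came from RNA sequencing of B16F10, a pigmented mouse melanoma cell line grown in medium with 10% serum. One library was from control cells, titled siCtrl and labelled wild type, and 2 libraries were from cells with Med23 knocked down by siRNA, titled siMed23A and siMed23B. Med23 belongs to Mediator, the large co-activator through which many transcription factors reach RNA polymerase II. From the labels it is not known if A and B stand for 2 siRNAs or for a repeat, if the cultures were separate, or how long after transfection RNA was taken. The p-values therefore measure only the spread between these libraries, which may be technical.

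As background, fatty acid synthesis begins in the cytosol when ATP citrate lyase (Acly) splits citrate into acetyl-CoA. Acetyl-CoA carboxylase (Acaca) turns this into malonyl-CoA, and fatty acid synthase (Fasn) joins these units into palmitate. Stearoyl-CoA desaturases (Scd1, Scd2) put the first double bond into saturated chains, elongases (Elovl) lengthen chains of different kinds, and the front-end desaturases Fads2 and Fads1 act in turn on polyunsaturated chains. Many of these genes are known targets of the sterol-regulated Srebp transcription factors.

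Values are RPKM, a read density per transcript length and library size, as the authors deposited them. The 3 columns had been made nearly equal in distribution, with a control column sum of 255492 RPKM. They therefore cannot show a change in total RNA, and the read depth is unknown. Med23 itself, the knockdown target, had a control value of 5.23 RPKM and knockdown values of 1.65 and 1.61 RPKM, a mean 3.20-fold lower. The knockdown libraries are called first and second by their place in the table, since its header does not say which is A and which is B. Differences are log2 ratios of RPKM + 1, tested with limma over the 9722 genes whose mean RPKM was 1 or more, and a gene is called higher or lower at a Benjamini-Hochberg adjusted p below 0.05.

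Of the 10 genes, 9 passed the filter, all of them above 1 RPKM in every library, and the tenth, Elovl6, had a mean of 0.974 RPKM. After knockdown 4 of the 9 rose (Fads1, Scd1, Elovl1, Fads2), 3 fell (Scd2, Acly, Elovl5) and the other 2, Fasn and Acaca, missed limma's threshold. The directions of Scd1 and Scd2 were part of the choice of genes, so their calls support nothing, and among the remaining 7 tested genes 3 rose, 2 fell and 2 were not called. Of all tested genes 26.3% were called higher and 24.0% lower, 50.3% in all, so calls were common throughout the table. The median log2 ratio of the 9 genes was -0.14, and that of all tested genes 0.01. Outside the Scd pair, the desaturases Fads1 and Fads2 thus rose. Of the elongases tested among the 10 genes, Elovl1 rose and Elovl5 fell. Neither of the enzymes that build palmitate from acetyl-CoA was called. In bulk RNA such as this, fewer cells of a type and less RNA per cell cannot be told apart.

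**Figure D1:**
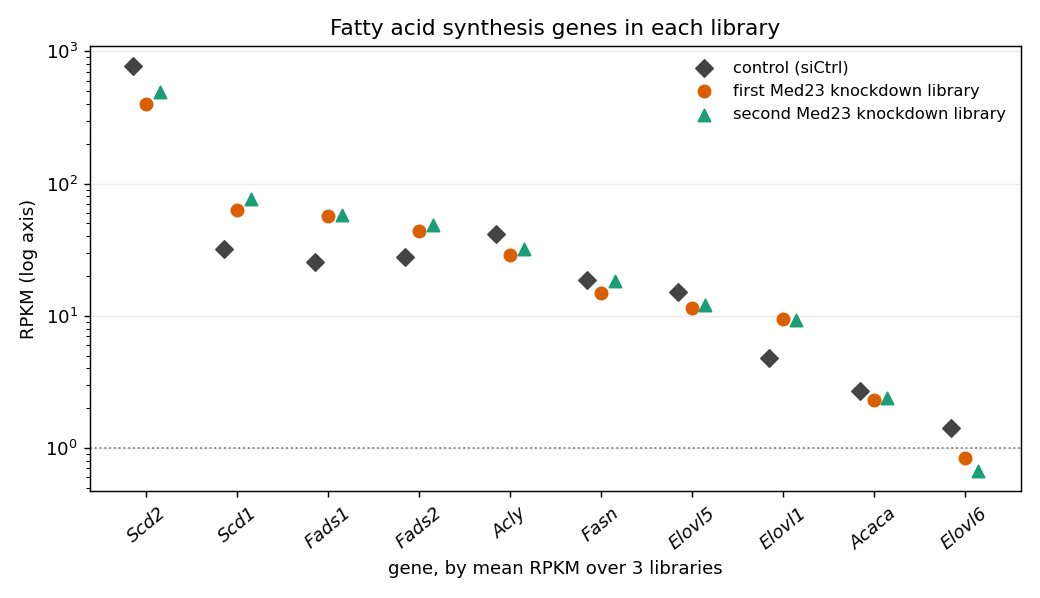
RPKM (log axis) of the 10 genes in the control and in the 2 knockdown libraries, ordered by their mean; the dotted line marks 1 RPKM. Scd2 stands above all the other genes in every library, and for Scd1, Fads1, Fads2 and Elovl1 the control point lies below both knockdown points.

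Scd1 and Scd2 encode 2 of the mouse stearoyl-CoA desaturases, which make oleate and palmitoleate, and their values went opposite ways. Scd1 (ENSMUSG00000037071) was 31.9 RPKM in the control, then 63.3 and 76.4 RPKM after knockdown. Both knockdown values were about double the control, and the log2 ratio was 1.10 (SE 0.12). Scd2 (ENSMUSG00000025203) was 774 RPKM in the control, then 403 and 491 RPKM after knockdown. Both knockdown values lay well below the control, a 1.73-fold lower mean of 447 ± 62.7 RPKM (SD, n = 2), with a log2 ratio of -0.80 (SE 0.11). Because the opposite movement was known when the genes were chosen, these values and the following comparison of the pair are a description with no test.

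Scd2 remained the main form by far. The ratio of Scd2 to Scd1 RPKM was 24.2 in the control and 6.36 and 6.43 in the knockdown libraries, so the Scd1 share of the pair went from 3.96% to 13.6% and 13.5%. The summed RPKM of the pair was 805 in the control and 466 and 568 after knockdown, since the fall of Scd2 was larger in RPKM than the rise of Scd1. The knockdown libraries differed from each other by 18.8% of their mean for Scd1 and by 19.8% for Scd2, with the second library higher for both, so their ratio was nearly equal in the 2 libraries. The second library was the higher one in 8 of the 10 genes, beside 57.1% of all tested genes. Scd2 ranked 34th of 12852 genes by RPKM in the control and 77th and 62nd after knockdown, and it made up 82.1% of the summed RPKM of the 10 genes in the control and 63.5% and 65.6% after knockdown.

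**Figure D2:**
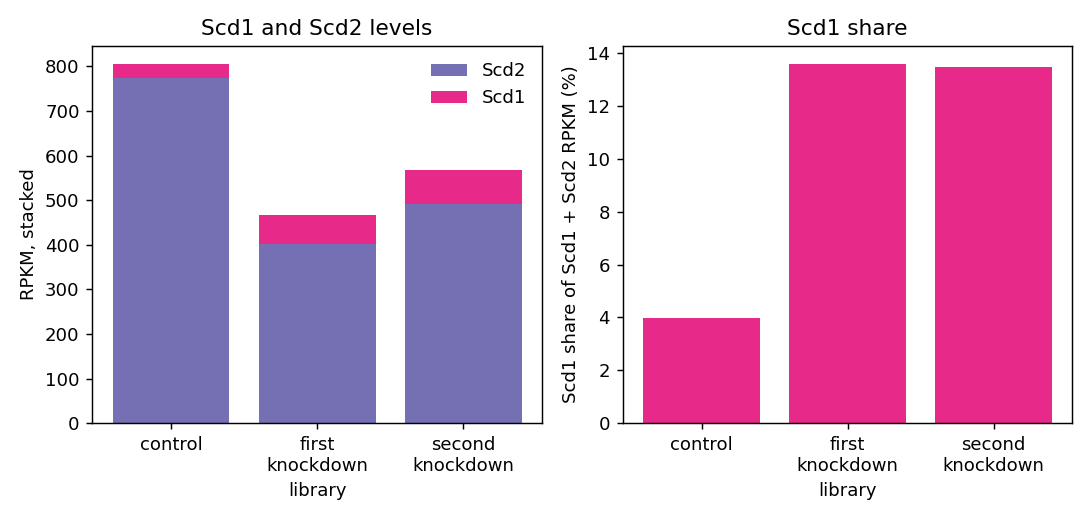
Left, stacked RPKM of Scd2 and Scd1 in each library; right, Scd1 as a percentage of their sum. Each bar is 1 library, and the Scd1 share is 3.96% in the control against 13.6% and 13.5% after knockdown.

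How far reads can be told apart between these paralogs bears on the values, so their coding sequences are shown. The coding sequences of Scd1 (1068 bases) and Scd2 (1077 bases) in GENCODE M21, an annotation of GRCm38, were identical at 90.7% of 1067 aligned bases. They differed most in the following 90 bases, at coding positions 103 to 192 of Scd1 and 112 to 201 of Scd2, where the 20 differing bases are in capitals.
Scd1: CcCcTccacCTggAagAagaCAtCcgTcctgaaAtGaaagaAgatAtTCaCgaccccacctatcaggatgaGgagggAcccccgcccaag
Scd2: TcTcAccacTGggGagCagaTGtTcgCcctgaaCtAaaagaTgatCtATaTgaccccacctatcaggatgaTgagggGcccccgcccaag
The longest identical stretch ran over 147 bases, from coding position 523 of Scd1 and 532 of Scd2, and a read that lies within it fits both genes.
Scd1 and Scd2: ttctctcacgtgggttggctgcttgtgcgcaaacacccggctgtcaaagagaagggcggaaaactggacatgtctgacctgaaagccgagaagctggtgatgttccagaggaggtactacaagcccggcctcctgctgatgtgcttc
Over the longest transcripts, 4.52% of all windows of 36 bases in Scd1 also occur in Scd2, and 4.02% of those in Scd2 also occur in Scd1. Another paralog, Scd3, holds 5.09% of the Scd1 windows and was not analysed here. The sources used here give neither the read length nor the handling of reads that fit several genes, so the Scd values carry that uncertainty. It is larger for Scd1, because Scd2 stood far above it in the control (774 against 31.9 RPKM). Scd2 reads counted for Scd1 would change the Scd1 level, its share and the ratio of the pair more than the Scd2 level. How many there were was not tested.

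Fads1 and Fads2, the front-end desaturases of polyunsaturated fatty acids, rose together. Fads1 (ENSMUSG00000010663), which acts after Fads2 in the pathway to arachidonate, was 25.4 RPKM in the control, then 56.8 and 58.1 RPKM after knockdown. Both values were more than double the control and close to each other, with a log2 ratio of 1.15 (SE 0.07, 95% interval 0.97 to 1.32, limma adjusted p = 0.000419). Fads2 (ENSMUSG00000024665), which acts first, was 27.7 RPKM in the control, then 43.5 and 48.3 RPKM after knockdown. It too lay above the control in both libraries, with a log2 ratio of 0.71 (SE 0.09, 95% interval 0.49 to 0.93, limma adjusted p = 0.00292). The ratio of Fads1 to Fads2 RPKM was 0.917 in the control and 1.31 and 1.20 after knockdown, so Fads1 was the lower of the pair in the control and the higher in both knockdown libraries. Their coding sequences were identical at 71.0% of aligned bases, with no identical run over 17 bases, so 36-base reads from their coding parts can be told apart.

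Both pairs lie on chromosome 19 in gene clusters, and the neighbouring genes did not all go the same way. In the RefSeq order of GRCm38.p6, Scd2, Scd4 and Scd1 follow each other, and Scd4, which lies between the members of the pair, was at most 0.102 RPKM in any library. Fads3, next to Fads2, was at most 0.266 RPKM. Fen1, a flap endonuclease of DNA replication and repair on the other side of Fads1, was 4.25 RPKM in the control, then 1.90 and 1.92 RPKM after knockdown, and it fell (log2 ratio -0.85, limma adjusted p = 0.00325). Bloc1s2, near the Scd cluster, was 9.15 RPKM in the control, then 8.06 and 8.11 RPKM after knockdown and did not pass limma's test (adjusted p = 0.221), nor did Cwf19l1 beside it (log2 ratio -0.25, limma adjusted p = 0.121). Fth1, which encodes the ferritin heavy chain and lies near Fads3, fell from 3119 RPKM to 2359 and 2306 RPKM (log2 ratio -0.42, limma adjusted p = 0.000475). Sec31b, Pkd2l1 and Rab3il1, also near these clusters, were under the filter. These neighbours were picked by position after the values were in hand.

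The elongases split. Elovl1 (ENSMUSG00000006390), which lengthens saturated and monounsaturated very long chains, was 4.82 RPKM in the control, then 9.51 and 9.24 RPKM after knockdown. Its knockdown values were nearly double the control and differed by 2.85% of their mean, and the log2 ratio was 0.83 (SE 0.10, 95% interval 0.58 to 1.09, limma adjusted p = 0.00257). Elovl5 (ENSMUSG00000032349), which lengthens polyunsaturated chains between the steps of Fads2 and Fads1, was 15.1 RPKM in the control, then 11.5 and 12.0 RPKM after knockdown. It was lower in both libraries by a smaller amount, with a log2 ratio of -0.33 (SE 0.09, 95% interval -0.57 to -0.10, limma adjusted p = 0.0310). The ratio of Elovl5 to Elovl1 RPKM was 3.12 in the control and 1.21 and 1.30 after knockdown. Fads2 and Fads1 thus rose while the elongase that acts between them fell. Elovl7, an elongase outside the 10 genes, is named here after the values were seen. It fell from 5.59 RPKM to 4.25 and 4.24 RPKM (log2 ratio -0.33, limma adjusted p = 0.0490).

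Elovl6 (ENSMUSG00000041220), which lengthens palmitate to stearate, was 1.41 RPKM in the control, then 0.844 and 0.669 RPKM after knockdown. Both knockdown values lay below the control, a 1.86-fold lower mean, but the gene stood just under the filter. In the fit without a filter its log2 ratio was -0.46 (SE 0.10, limma adjusted p = 0.0297). Of the 36-base windows of the longest Elovl6 transcript, 6.71% also occur in other genes. Gm11295, which was not analysed here, holds 5.32% of them, so the low Elovl6 level carries that uncertainty too. The transcript of Elovl1 shares 18 windows of 36 bases with Cdc20, a mitotic regulator that rose from 18.1 RPKM to 31.3 and 33.8 RPKM (log2 ratio 0.81, limma adjusted p = 0.00189). The sources used here do not say if the counting used the strand. That overlap is 1.01% of the Elovl1 windows.

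**Figure D3:**
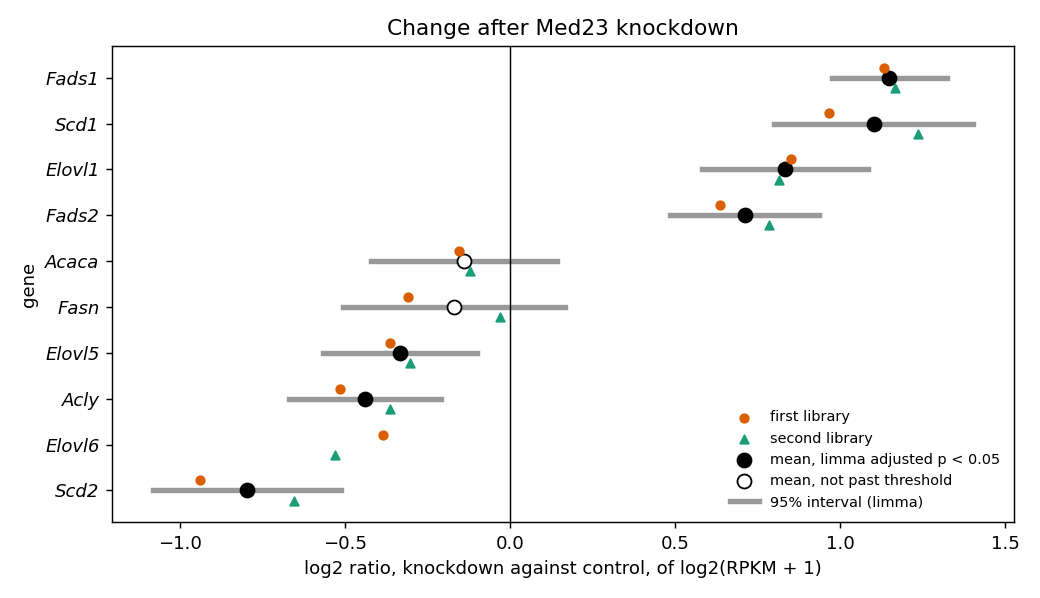
Log2 ratios of knockdown against control for each knockdown library (coloured) and for their mean with the 95% limma interval (grey); filled circles passed an adjusted p of 0.05. Fads1, Scd1, Elovl1 and Fads2 lie to the right of 0 in both libraries, and Elovl6 has no interval because it was under the filter.

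Of the enzymes that supply and join the building blocks, Acly fell and Fasn and Acaca were not called. Acly (ENSMUSG00000020917) was 41.4 RPKM in the control, then 28.6 and 31.9 RPKM after knockdown. Both values were lower, by 26.8% on average, with a log2 ratio of -0.44 (SE 0.09, 95% interval -0.67 to -0.21, limma adjusted p = 0.0130). Fasn (ENSMUSG00000025153) was 18.7 RPKM in the control, then 14.9 and 18.3 RPKM after knockdown. The second knockdown value almost met the control, and the SD of the knockdown libraries was 114% of their distance from it. Fasn was not called (log2 ratio -0.17, 95% interval -0.51 to 0.17, limma adjusted p = 0.330), and its log2 ratio was 0.11 after a correction for transcript length and GC content, so no direction can be given.

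Acaca (ENSMUSG00000020532), the source of malonyl-CoA for both Fasn and the elongases, was 2.69 RPKM in the control, then 2.31 and 2.38 RPKM after knockdown. It was not called (log2 ratio -0.14, 95% interval -0.42 to 0.14, limma adjusted p = 0.338), and the sign turned with the length and GC correction, to 0.25. The interval still holds changes of up to -0.42, so a modest fall cannot be told from no change. The level of Acaca is itself uncertain, because 55.7% of the 36-base windows of its longest transcript (9513 bases) also occur in Gm5182, another annotated gene, which was not analysed here. For Acly, Fasn, Elovl5 and Fads1 the same search found 0 shared windows.

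By level, the order in the control was Scd2, Acly, Scd1, Fads2, Fads1, Fasn, Elovl5, Elovl1, Acaca and Elovl6. In both knockdown libraries it was Scd2, Scd1, Fads1, Fads2, Acly, Fasn, Elovl5, Elovl1, Acaca and Elovl6. Acly thus went from the second to the fifth place, and the lower 5 kept their order. Neighbours in the knockdown order did not overlap in any pair, but the gap between Scd1 at 69.9 ± 9.28 RPKM and Fads1 at 57.5 ± 0.919 RPKM (SD, n = 2) was close to the spread of Scd1. The 10 genes summed to 943 RPKM in the control and 634 and 749 RPKM after knockdown, whereas the sum without Scd2 was 169 RPKM in the control, then 231 and 257 RPKM after knockdown.

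By size alone, with no test, 4 of the 10 genes were at least 1.5-fold higher in both knockdown libraries (Scd1, Elovl1, Fads1, Fads2) and 2 were at least 1.5-fold lower (Scd2, Elovl6). Among all tested genes these shares were 14.6% and 13.5%. At a limit of 25%, taken as a ratio, the same 4 genes were higher and Acly and Elovl5 joined the lower ones, beside 26.7% and 24.4% of all tested genes. At least 2-fold, only Fads1 was higher and 0 of the 10 were lower, where all tested genes gave 4.97% and 4.76%. The control lay below both knockdown libraries for 4 genes and above both for 6, and among all tested genes that held for 46.6% and 44.2%. The 10 genes counted here include Scd1 and Scd2, whose directions were part of the choice, so their part in these counts supports nothing. They also include Elovl6, which was under the filter and so not among the tested genes behind these shares.

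The limma p-values assume that the single control would vary as the knockdown libraries do, which cannot be checked here. With a control SD taken as 2 times theirs, Fads1, Elovl1 and Fads2 still passed and Acly and Elovl5 did not, where 15.4% of all tested genes passed. Scd1 also passed and Scd2 did not, but their directions were part of the choice, so these outcomes support nothing. With 3 times, Fads1 alone passed (adjusted p = 0.0476), against 2.01% of all tested genes.

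Start-site windows were searched for motifs of known lipid gene regulators. RefSeq windows of 300 bases (250 before to 50 after a start site, GRCm38.p6) were at hand for 7 of the 10 genes, and Scd1, Scd2 and Fads1 were not among them. Because Elovl1 has another start site, the 7 genes had 8 windows, and the counts below are per gene while the shares are per window. The letters TCACNCCAC, a form of the sterol regulatory element, were found on either strand in 0 of the 7 genes and in 1.24% of all 32851 windows. With letters so rare, a count of 0 in so few windows cannot show that such an element is absent. CCAAT, the box bound by NF-Y, which works beside Srebp at many lipid genes, was found on either strand in 4 of the 7 (Elovl1, Elovl5, Acly, Fasn) and in 37.4% of all windows. GGGCGG, a GC box, was found in Elovl1, Acly and Fads2 and in 35.7% of all windows. CACGTG, an E-box, was found in Elovl5 alone of the 7 and in 7.15% of all windows. The windows of Elovl1, which rose, and Elovl5, which fell, are shown as examples from the 4 genes with a CCAAT box. The box is given in capitals on whichever strand it lies. They are chr4:118427843-118428142 on the plus strand and chr9:77917115-77917414 on the plus strand.
Elovl1: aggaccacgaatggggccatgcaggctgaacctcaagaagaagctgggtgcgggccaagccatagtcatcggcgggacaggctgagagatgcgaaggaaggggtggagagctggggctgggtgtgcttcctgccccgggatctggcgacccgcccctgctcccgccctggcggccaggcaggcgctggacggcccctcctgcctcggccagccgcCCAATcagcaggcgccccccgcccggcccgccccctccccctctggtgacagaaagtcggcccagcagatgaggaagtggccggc
Elovl5: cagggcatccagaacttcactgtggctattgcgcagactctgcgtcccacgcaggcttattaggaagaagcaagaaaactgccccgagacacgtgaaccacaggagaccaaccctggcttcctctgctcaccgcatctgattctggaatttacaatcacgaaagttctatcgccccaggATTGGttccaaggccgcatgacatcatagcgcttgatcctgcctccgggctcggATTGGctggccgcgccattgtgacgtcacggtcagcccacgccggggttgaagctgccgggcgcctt
The box stands once in the Elovl1 window, 35 bases before the start site, and 2 times in reverse in the Elovl5 window, beginning 71 and 17 bases before it. The other start site of Elovl1 holds no CCAAT. Both genes were shown with their directions known, so their contrast supports nothing. A match is only a match of letters, and its bearing on the values was not tested.

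Genes around the pathway were taken from 5 lists with 128 entries, of which 102 genes were tested: 30 rose, 36 fell and 36 missed limma's threshold, beside 26.3% and 24.0% of all tested genes. Their median log2 ratio was -0.14. The largest share of calls, 14 of 14, was in the list of acetyl-CoA and NADPH supply.

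Among the 14 tested genes of the list of acetyl-CoA and NADPH supply, 4 rose, 10 fell and 0 missed limma's threshold, with a median log2 ratio of -0.40. Of all tested genes 26.3% were called higher and 24.0% lower. The list also holds neighbouring enzymes, such as Mdh1, that make neither product. Mdh1, the cytosolic malate dehydrogenase, fell from 153 RPKM to 87.3 and 86.8 RPKM (log2 ratio -0.80, limma adjusted p = 0.000595). Pgd, which makes NADPH in the pentose phosphate pathway, fell from 11.3 RPKM to 5.81 and 6.56 RPKM. Me2, a mitochondrial malic enzyme, fell from 49.3 RPKM to 24.1 and 31.2 RPKM. The 4 higher genes, which were picked out after seeing the values, were Slc25a1, the citrate carrier that feeds Acly, Acss2, which makes acetyl-CoA from acetate, Tkt and Pgls. Slc25a1 rose from 30.4 RPKM to 40.9 and 43.3 RPKM and Acss2 from 3.03 RPKM to 5.23 and 6.18 RPKM, so the carrier rose where Acly fell.

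Of 21 tested genes of Srebp and other control of fatty acid synthesis, 8 rose, 6 fell and 7 missed limma's threshold (median log2 ratio 0.02). Among all tested genes 26.3% were called higher and 24.0% lower. Mbtps1, the protease that makes the first cut in Srebp precursors, fell from 12.7 RPKM to 4.83 and 4.89 RPKM (log2 ratio -1.22, limma adjusted p = 0.000954). Ppard, a nuclear receptor for fatty acids, fell from 14.8 RPKM to 5.08 and 5.52 RPKM, and Prkaa2, a catalytic subunit of the AMP-activated kinase that inhibits acetyl-CoA carboxylase, from 4.81 RPKM to 2.26 and 1.97 RPKM. Srebf1 and Srebf2, which encode the Srebp factors, were looked up after the values were seen. Srebf1 was 8.60 RPKM in the control, then 5.83 and 7.12 RPKM after knockdown (limma adjusted p = 0.0731), and Srebf2 rose from 34.9 RPKM to 44.1 and 50.6 RPKM (limma adjusted p = 0.0182).

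Of 15 other enzymes of elongation, desaturation and synthesis, 5 rose, 6 fell and 4 did not pass (median log2 ratio -0.33). The shares of all tested genes were 26.3% higher and 24.0% lower. Mcat and Acsf3, of the separate mitochondrial route of fatty acid synthesis, fell from 4.91 RPKM to 2.12 and 1.97 RPKM and from 4.51 RPKM to 2.01 and 2.48 RPKM. Degs2, a desaturase of sphingolipids, rose from 3.25 RPKM to a mean of 5.81 ± 0.278 RPKM (SD, n = 2). Mcat, Acsf3 and Degs2 had limma adjusted p = 0.00249, 0.00784 and 0.00607.

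Of 24 genes of fatty acid activation and glycerolipid assembly, 6 rose, 6 fell and 12 did not pass (median log2 ratio -0.05). Of all tested genes 26.3% were called higher and 24.0% lower, so these counts lay near those shares. Fabp5, a fatty acid binding protein, rose from 42.2 RPKM to 101 and 86.4 RPKM (log2 ratio 1.13, limma adjusted p = 0.00127). Acsl5, an acyl-CoA synthetase, rose from 10.4 RPKM to 18.2 and 17.2 RPKM, and Plin3, a lipid droplet coat protein, fell from 65.8 RPKM to 36.4 and 36.8 RPKM. Of 28 genes of fatty acid oxidation, the opposite pathway, 7 rose, 8 fell and 13 did not pass (median log2 ratio -0.08). These counts too lay near the shares of all tested genes. Cpt2, which hands fatty acids over inside mitochondria, fell from 8.63 RPKM to 3.42 and 3.22 RPKM (log2 ratio -1.16, limma adjusted p = 0.00138). Hsd17b4, of peroxisomal oxidation, fell from 11.9 RPKM to 5.76 and 6.24 RPKM, and Mlycd, which breaks down malonyl-CoA, from 3.10 RPKM to 1.27 and 1.34 RPKM.

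**Figure D4:**
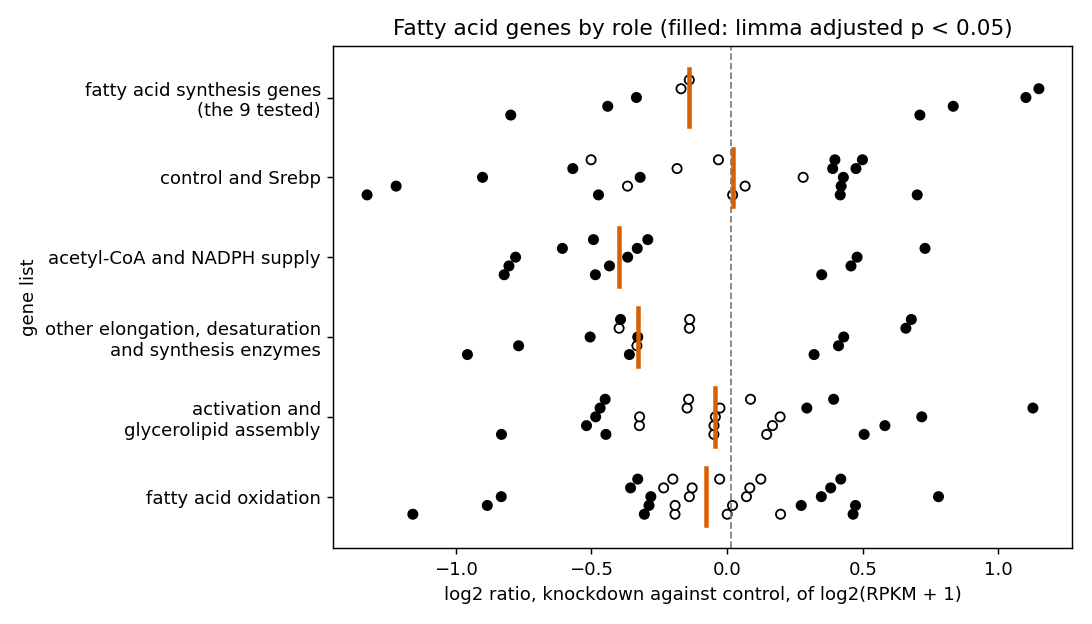
Log2 ratio of knockdown against control for each tested gene of the fatty acid lists; filled points passed an adjusted p of 0.05, orange bars are list medians and the dashed line is the median of all tested genes, 0.01. The 14 genes of the supply list have the lowest median, -0.40.

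The cell type was checked against its markers. All 10 melanocytic markers had values, summing to 8843 RPKM in the control and 3733 and 3600 RPKM after knockdown. All 10 fell past limma's test, beside 24.0% of all tested genes called lower. Of 7 markers of adipocytes, a cell type known for fat synthesis and storage, Plin1 and Fabp4 had values and were at most 0.484 and 0.308 RPKM, summing to 0.0755 RPKM in the control and 0.160 and 0.792 RPKM after knockdown. Of 8 macrophage and leukocyte markers 3 had values, Cd68, Csf1r and Lyz2, summing to 18.1 RPKM in the control and 11.5 and 11.7 RPKM after knockdown. Cd68 made up 16.9, 10.0 and 10.1 RPKM of these sums and fell, whereas Lyz2 rose from 0.646 RPKM to 1.19 and 1.18 RPKM (limma adjusted p = 0.0305), and Csf1r was at most 0.588 RPKM. Of 7 fibroblast markers 2 had values, Col1a1 and Pdgfra, summing to 0.340 RPKM in the control and 0.650 and 0.924 RPKM after knockdown. The remaining markers, with the hepatocyte and endothelial lists, were not analysed here. The part of the melanocytic fall in the values of the fatty acid genes was not tested.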

How the data were processed

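The values were RPKM in 1 table of 3 libraries, computed and deposited by the authors, and all 3 value columns were used. CASAVA 1.4, TopHat and Cufflinks, with the build mm9, are listed per the submitters' processing notes, which give no role or order. After sorting, the columns were equal (to within 1e-09 of their size) in 95.3% of positions, so the deposited RPKM had been quantile normalized. The control column was matched by name, and the other columns only to their group. Genes whose mean RPKM reached 1 were tested as log2(RPKM + 1), which understates changes of low genes, with limma 3.58.1 in R 4.3.3 (intensity trend, Benjamini-Hochberg over 9722 genes). The spread rests on 1 residual degree of freedom, which the knockdown libraries supply, and on 4.37 prior degrees of freedom. The step was run on simulated data in which the control varied as the knockdown libraries did. That run could therefore not check the assumption about the control. Transcripts, lengths and GC came from GENCODE M21 (98.1% of gene IDs matched) and start-site windows and gene order from RefSeq (GRCm38.p6). Both belong to another build than mm9, so no coordinate of the deposited table is given. The genes and lists were chosen with earlier results of these data known. Named beside them were up to 3 called genes of each list with the largest smaller change of the 2 knockdown libraries. Python 3.11.15, pandas 2.3.3, numpy 2.4.6 and matplotlib 3.10.9 were used.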

Additional observations from a re-analysis of the deposited data

How the results depend on the processing

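Among the 10 genes, each limma call that was lost under another setting was lost with a larger assumed spread of the control. The counts below include Scd1 and Scd2, whose directions were part of the choice, so their calls support nothing under any setting. With a control SD of 2 times that of a knockdown library the log2 ratios of Acly, Scd2 and Elovl5 (-0.44, -0.80 and -0.33) no longer passed limma's test, with adjusted p = 0.117 for Acly and 0.200 for Elovl5. With 3 times, Scd1, Elovl1 and Fads2 (1.10, 0.83 and 0.71) also failed, so that the counts of the 9 genes higher and lower were 4 and 0 with 2 times and 1 and 0 with 3 times. Of the other pathway genes 4 were higher and 11 lower with 2 times, and 0 and 0 with 3 times. Of all tested genes, in either direction, 15.4% passed with 2 times and 2.01% with 3 times. Correction for length and GC content turned the sign of Acaca (0.25, limma adjusted p = 0.0997) and of Fasn (0.11, adjusted p = 0.416), neither of which was called under any setting. At a limit of 25% (as a ratio) in both libraries 4 of the 10 genes were higher and 4 lower, and at 2-fold 1 was higher and 0 lower. The 7 called genes kept their direction and passed with a pseudocount of 0.1, without a filter, with a minimum of 5 RPKM, after rescaling or renewed quantile normalization, without the intensity trend and after the length and GC correction. Over all settings the adjusted p ranged from 1.5e-05 to 0.0476 for Fads1, from 0.00109 to 0.171 for Elovl1, from 0.000389 to 0.184 for Fads2, from 0.00543 to 0.355 for Acly and from 0.00732 to 0.474 for Elovl5. Leaving out 1 knockdown library gave values with no test, and each gene kept its direction. No paired analysis was possible because the control has 1 library and the table's columns carry no replicate number. RPKM give no depth, so no counting error is known.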

Other observations

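The knockdown libraries also differed from each other, with the second the higher in all of the 10 genes but Elovl1 and Elovl6. The difference was largest for Elovl6 (23.2% of the knockdown mean), Fasn (20.4%), Scd2 (19.8%) and Scd1 (18.8%), and smallest for Fads1 (2.26%), Elovl1 (2.85%) and Acaca (3.22%).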
